A study of Homo sapiens with 26 samples.

Results

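The libraries compared here were 10 of 26, the 5 with the highest and the 5 with the lowest mRNA level of CDH1 among those pancreatic cancer single cell-derived cell lines (SCDCLs) that expressed SMAD4. An SCDCL is a culture grown by limiting dilution from a single cell of a parental line, so each library stands for 1 clone. Of the 26 poly-A libraries, 12 were labelled BxPC3, a line described as classical-like, and 14 were labelled Panc-1, a line described as basal-like. All clones were kept in DMEM high glucose with serum, and gemcitabine stands as the treatment in the labels of all 26 libraries. In the methods, the drug was given in survival tests of the clones, and no treatment is described for the cells used for RNA. Libraries are named below by their label and number.

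SMAD4, the shared mediator of TGF-beta signaling, divided the 26 libraries against their labels. It was measured at 28.1 to 52.2 TPM (a level corrected for transcript length and library total) in 14 libraries and at 0.044 TPM or less in the other 12. Of these 14 SMAD4-positive libraries, 7 were labelled BxPC3 and 7 were labelled Panc-1, so a label alone did not tell which kind of cell a library held. The 14 were therefore treated as one set. The label was used only in alternative fits, as a covariate or in an interaction with the group, and for rank correlations within each label. Their totals ranged from 27035724 to 32601392 estimated counts, and no pair of the 14 agreed within sampling noise. The p-values below measure the spread between clones, each of which was sequenced once.

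CDH1 encodes E-cadherin, the cadherin that joins neighbouring epithelial cells at adherens junctions and is anchored to actin through p120, beta- and alpha-catenin. Carcinoma cells lose it during epithelial-mesenchymal transition (EMT), in which the SNAIL, ZEB and TWIST factors bind E-box motifs of its promoter and repress it. Cells that keep some E-cadherin beside vimentin are often described as a partial EMT state.

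The groups were chosen by CDH1 itself, so its values are a description and were not tested. In the CDH1-high libraries it was 7.74 TPM in Panc-1 8, 7.09 in BxPC3 17, 6.09 in BxPC3 19, 3.75 in Panc-1 9 and 3.15 in Panc-1 14. In the CDH1-low libraries it was 1.53 TPM in BxPC3 15, 1.05 in BxPC3 22, 0.917 in Panc-1 10, 0.402 in BxPC3 18 and 0.338 in Panc-1 13. The means were 5.56 ± 2.03 TPM (SD, n = 5) and 0.847 ± 0.492 TPM (SD, n = 5), a ratio of 6.57, and the highest library lay 22.9-fold above the lowest. Both labels occurred in both groups, 2 BxPC3 and 3 Panc-1 in the CDH1-high and 3 BxPC3 and 2 Panc-1 in the CDH1-low group. Even the highest of these levels was far below the 90.8 to 198 TPM of the 12 SMAD4-null libraries.

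**Figure D1:**
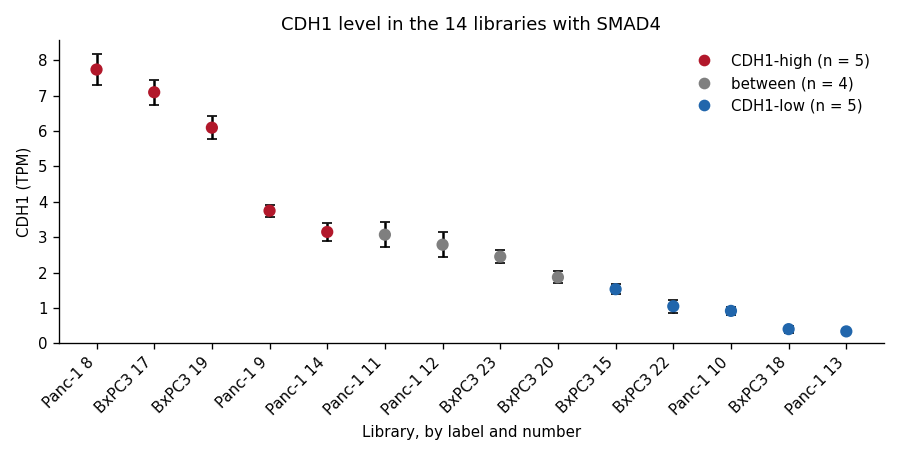
CDH1 level (TPM, y axis) in each of the 14 SMAD4-positive libraries, ordered by level along the x axis; bars are the SD of 30 resampled estimates of the same library, rescaled to TPM, and colours give the group. The order falls from 7.74 to 0.338 TPM with no step between Panc-1 14 (3.15) and Panc-1 11 (3.07).

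The upper boundary of the groups was narrow. Panc-1 14, the last CDH1-high library, had 3.15 TPM, and Panc-1 11, the first library left between the groups, had 3.07 TPM. Panc-1 12 followed with 2.79, BxPC3 23 with 2.45 and BxPC3 20 with 1.87 TPM, ahead of BxPC3 15 with 1.53. Ranked by CPM (the count scaled to the library total), Panc-1 14 stood at rank 6 with 8.84 CPM and Panc-1 11 at rank 5 with 9.04 CPM. Ranked by the mean of its resampled estimated counts, which are not rescaled by transcript length, Panc-1 14 stood at rank 9. Membership of this library in the CDH1-high group therefore depended on the measure used.

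All 14 libraries carried mesenchymal markers. VIM, the intermediate filament vimentin, was measured at 3658, 3718, 4219, 5399 and 3259.7 CPM in the CDH1-high and at 4889, 4003, 3639.8, 5187 and 4109 CPM in the CDH1-low libraries, in the order given above. These ranges overlapped, and the log2 fold change was -0.11 (SE 0.17, edgeR adjusted p = 0.957). In the SMAD4-null libraries VIM had a median of 12 CPM. ZEB1, an EMT repressor of CDH1, was measured at 23.9 to 36.5 CPM in the 14 libraries against a median of 1.85 CPM in the SMAD4-null ones. CDH2, which encodes N-cadherin, varied from 8.36 to 407 CPM within the 14, and its highest value was in BxPC3 20, a library between the groups. FN1, which encodes fibronectin, did not mark these clones: it was at 2.37 to 8.51 CPM, below the SMAD4-null median of 79.5 CPM. Of the epithelial markers, GRHL2 was at or below 1.14 CPM and ESRP1 at or below 1.37 CPM in every one of the 14 libraries, EPCAM was at 8.06 to 20.6 CPM in the CDH1-high libraries, and CLDN4 was at 91.4 to 625 CPM across the 14.

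No other gene passed the test between the groups. With CDH1 left out, edgeR's quasi-likelihood test with Benjamini-Hochberg adjustment called 0 of 15250 genes (0.0%), and the smallest adjusted p was 0.479. An unadjusted p under 0.05 was reached by 977 genes, or 6.41% of those tested, 546 higher in the CDH1-high libraries (3.58%) and 431 lower (2.83%). In 154 genes (1.01%), the 5 libraries of one group did not overlap with those of the other, 83 higher (0.544%) and 71 lower (0.466%) in the CDH1-high group. The median log2 fold change over all genes was -0.00067. DESeq2 on the same counts called 56 genes (0.367%), 39 higher and 17 lower, and all 56 had an unadjusted p under 0.05 in edgeR. The DESeq2 count was 39 to 112 without any 1 library, the most without Panc-1 13, and 28 with CDH1 ranked by CPM. With limma on log2(CPM + 1), the count was 0, and 994 genes had an unadjusted p under 0.05. Calls named below as DESeq2 calls are thus calls of one tool only.

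The genes with the smallest p among those without overlap were led by LOXL4, a lysyl oxidase-like enzyme that cross-links collagen and elastin. It is annotated on chromosome 10 (GRCh38, chr10:98247690-98268194, minus strand). LOXL4 was measured at 58.1 CPM in Panc-1 8, 21.6 in BxPC3 17, 85.2 in BxPC3 19, 34.8 in Panc-1 9 and 68.5 in Panc-1 14. In the CDH1-low libraries it was 4.72 CPM in BxPC3 15, 3.61 in BxPC3 22, 9.23 in Panc-1 10, 15.1 in BxPC3 18 and 10.3 in Panc-1 13. Every CDH1-high library thus lay above every CDH1-low library, with means of 53.6 ± 25.6 and 8.58 ± 4.61 CPM (SD, n = 5 each). The log2 fold change was 2.64 (SE 0.45), with an adjusted p of 0.479 in edgeR and 1.87e-06 in DESeq2. The 4 libraries between the groups had 14.3, 38.1, 2.89 and 19.4 CPM, and so reached into both groups.

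KRT19, a keratin of simple ductal epithelium, was abundant in both groups and again did not overlap. Its values were 1591, 1349, 1763, 1317 and 1391 CPM in the CDH1-high and 1010.2, 643, 692, 539.5 and 931 CPM in the CDH1-low libraries, in the same order. The log2 fold change was 0.96 (SE 0.18), the edgeR adjusted p was 0.479 and that of DESeq2 0.000669. The CDH1-high values lay within the 1025 to 2675 CPM of the SMAD4-null libraries. MYL9, a regulatory light chain of the actomyosin motor, was measured at 62.0, 84.9, 137, 99.1 and 72.8 CPM against 36.2, 16.4, 22.2, 31.8 and 47.1 CPM, a log2 fold change of 1.57 (SE 0.29) with the same edgeR adjusted p of 0.479.

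RADIL, an effector of the small GTPase Rap in integrin adhesion, was a less abundant gene with the same separation. It had 7.81, 4.61, 5.59, 5.35 and 3.01 CPM in the CDH1-high and 1.20, 1.82, 2.48, 1.3 and 1.67 CPM in the CDH1-low libraries, a log2 fold change of 1.64 (SE 0.31). BxPC3 20, between the groups by CDH1, had 7.07 CPM and resembled the CDH1-high libraries. GPRC5B, an orphan G protein-coupled receptor, had 44.4, 30.5, 73.8, 87.1 and 62.5 CPM against 10.5, 22, 14.2, 2.72 and 15.4 CPM, a log2 fold change of 2.20 (SE 0.45) with an edgeR adjusted p of 0.575.

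On the lower side, CAMK2N1, an inhibitor of the kinase CaMKII, was measured at 10.2, 9.22, 9.32, 18.5 and 9.72 CPM in the CDH1-high and at 40.1, 25.3, 19.3, 31.4 and 28.1 CPM in the CDH1-low libraries. The log2 fold change was -1.34 (SE 0.25, edgeR adjusted p = 0.479, DESeq2 adjusted p = 0.000553). The gap between the groups was small at its edge, 18.5 CPM in Panc-1 9 against 19.3 CPM in Panc-1 10. Among the libraries between the groups CAMK2N1 ran from 5.24 CPM in BxPC3 20 to 52.8 CPM in BxPC3 23, beyond both groups.

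AMOT encodes angiomotin, a scaffold of cell junctions that binds the Hippo effector YAP. It had 1.27, 3.38, 1.96, 1.47 and 1.12 CPM in the CDH1-high and 10.9, 9.59, 3.67, 12.1 and 4.86 CPM in the CDH1-low libraries. The log2 fold change was -2.15 (SE 0.41, edgeR adjusted p = 0.479), the largest difference of the 5 lower genes named by the rule. The remaining lower genes were F12, the coagulation factor XII gene, with a log2 fold change of -0.79 (SE 0.15), CPEB4, an RNA-binding regulator of polyadenylation and translation, with -0.59 (SE 0.11), and TRIM7, a ubiquitin ligase gene, with -0.83 (SE 0.17). DESeq2 called all 10 of these genes.

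**Figure D2:**
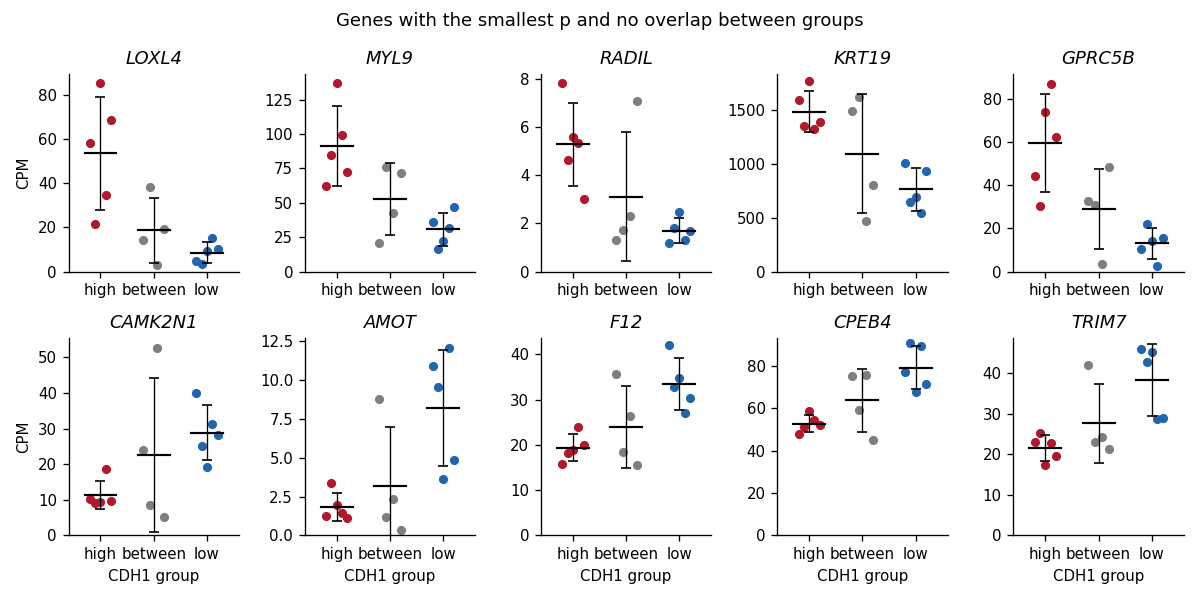
Level (CPM, y axis from 0) of the 10 genes with the smallest p and no overlap between the CDH1-high and CDH1-low libraries; each point is 1 library, the line is the group mean and the bar its SD (n = 5, 4 and 5), cut at 0 where it would run below. The end groups are separate by the choice of these genes, as in LOXL4 (lowest CDH1-high 21.6, highest CDH1-low 15.1 CPM), while the libraries between them spread widely.

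F12, CPEB4 and TRIM7, 3 of the 5 lower genes, are annotated near each other at the end of the long arm of chromosome 5. F12 lies at chr5:177402133-177416583, CPEB4 at chr5:173888349-173961980 and TRIM7 at chr5:181193924-181205293 (GRCh38). Chromosome 5 held 73 genes lower and 10 higher at an unadjusted p under 0.05 among 628 tested, 13.2% in all against the 6.41% over all genes. The stretch was examined from position 160000000 onwards, a limit chosen after the values were seen. There, 43 of 107 tested genes were lower (40.2%) and 1 was higher in the CDH1-high libraries at an unadjusted p under 0.05, with a median log2 fold change of -0.43. Before that position on chromosome 5, 30 of 521 genes were lower (5.76%) and the median was -0.10.

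The distal genes did not follow CDH1 evenly across the libraries. Each library's level was summarised as the median deviation of 91 distal genes (those averaging 5 CPM or more) from their mean over the 14 libraries, on the log2(CPM + 1) scale. It was 0.28 in BxPC3 15, 0.65 in BxPC3 22 and 0.42 in Panc-1 10, but -0.06 in BxPC3 18 and -0.07 in Panc-1 13, the 2 libraries with the least CDH1. In the CDH1-high libraries it was -0.11 in Panc-1 8, -0.12 in BxPC3 17, -0.42 in BxPC3 19, -0.06 in Panc-1 9 and -0.08 in Panc-1 14. Of the libraries between the groups, Panc-1 11 had 0.29, Panc-1 12 -0.10, BxPC3 23 -0.44 and BxPC3 20 -0.15. The shift of this stretch thus came from 3 of the 5 CDH1-low libraries and from the low value of BxPC3 19. In BxPC3 19 the rest of chromosome 5 was about as low, with a median deviation of -0.40. F12 showed the same split among the CDH1-low libraries, with 42.2, 32.9 and 34.8 CPM in the first 3 and 27.1 and 30.3 CPM in BxPC3 18 and Panc-1 13. In the CDH1-high group it was at 15.8, 18.3, 18.9, 24.0 and 19.9 CPM. TRIM7 showed this split too, with 45.9, 42.8 and 45.1 CPM in the first 3 and 28.7 and 28.8 CPM in BxPC3 18 and Panc-1 13. The CDH1-high libraries had 17.2 to 25.2 CPM of TRIM7. CPEB4 did not show the split, since BxPC3 18 was at 89.1 CPM beside 77.0 in BxPC3 15, 90.6 in BxPC3 22, 67.7 in Panc-1 10 and 71.4 in Panc-1 13. It was at 47.6 to 58.6 CPM in the CDH1-high libraries. The part of the whole stretch in the single-gene differences was not tested.

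**Figure D3:**
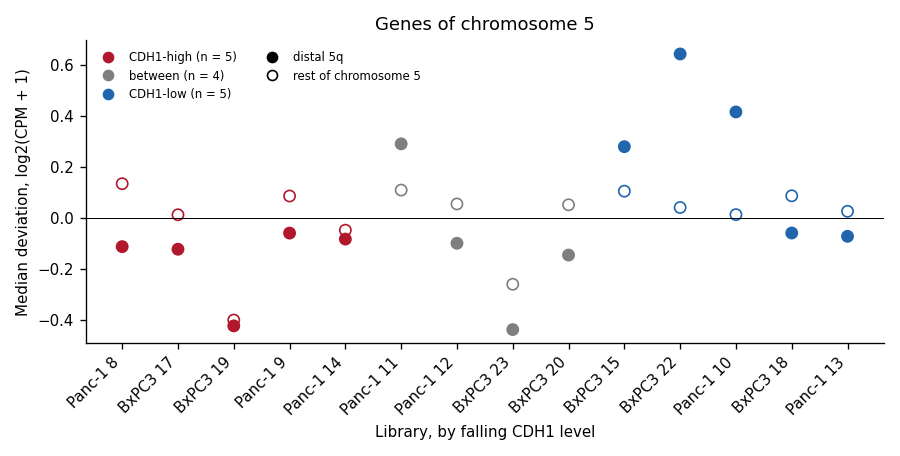
Median deviation of chromosome 5 genes from their mean over the 14 libraries (y axis, log2(CPM + 1)), by library in falling order of CDH1; filled points are the distal genes and open points the rest of the chromosome. The distal genes stand at 0.28 to 0.65 in BxPC3 15, BxPC3 22 and Panc-1 10 and near 0 in BxPC3 18 and Panc-1 13, and in BxPC3 19 and BxPC3 23 the rest of the chromosome is low as well.

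CDH1's own chromosomal surroundings showed no such stretch. CDH1 lies at chr16:68737292-68835537 (GRCh38, plus strand). Of 38 tested genes starting within 1000000 bases of its start, 0 passed the adjusted threshold in edgeR. An unadjusted p under 0.05 was reached by 1, against 6.41% of all genes. This was PLA2G15, a lysosomal phospholipase gene with a log2 fold change of 0.49 (SE 0.18). DESeq2 and limma on the same 10 libraries also called 0 of the 38. The median log2 fold change of the 38 was 0.01, and 36 of them lay within 0.5 of 0 on the log2 scale. TANGO6, the next tested gene downstream, had a log2 fold change of 0.10 (SE 0.20). CDH3, the P-cadherin gene directly upstream of CDH1, had a log2 fold change of 1.09 (SE 0.66, edgeR adjusted p = 0.831). That mean came from 1 library, Panc-1 8, with 23.3 CPM, while the other CDH1-high libraries had 1.5 to 3.98 CPM and the CDH1-low libraries 1.99 to 4.82 CPM. Panc-1 11 had a similar CDH3 level of 24.8 CPM at 9.04 CPM of CDH1.

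The partners that anchor E-cadherin differed little between the groups. Of 18 adherens junction genes, 16 were tested. At an unadjusted p under 0.05, 2 were higher and 1 lower, against 3.58% and 2.83% of all genes. Of the list, 0 were called by edgeR or DESeq2, and the median log2 fold change was 0.10. CTNNB1, beta-catenin, had means of 199.8 ± 12.4 CPM in the CDH1-high and 205.5 ± 14.5 CPM in the CDH1-low libraries, and a log2 fold change of -0.04 (SE 0.10). CTNNA1, alpha-catenin, had a log2 fold change of 0.01 (SE 0.13). CTNND1, the p120 catenin that binds the cadherin tail and slows its endocytosis, was at 372, 284, 302, 285 and 256 CPM against 281, 206, 228, 164 and 293 CPM, a log2 fold change of 0.36 (SE 0.17, edgeR adjusted p = 0.784). VCL, which encodes the actin linker vinculin, was at 882, 1120.5, 993, 747 and 988 CPM against 716, 580, 661, 787 and 657 CPM. Its log2 fold change of 0.48 (SE 0.14, edgeR adjusted p = 0.643) was the clearest of this list, and only BxPC3 18 among the CDH1-low libraries lay within the range of the CDH1-high group. CDH2 had a log2 fold change of -0.95 with an SE of 0.78, since it ranged from 8.36 to 87.6 CPM in one group and from 9.27 to 130 CPM in the other.

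The repressors of CDH1 did not separate the groups either. Of 18 EMT transcription factors, 14 were tested, with 0 called by edgeR or DESeq2 and a median log2 fold change of 0.09. There was 1 higher and 1 lower at an unadjusted p under 0.05, against 3.58% and 2.83% of all genes. ZEB1 was at 33.1, 29.1, 34.2, 34.6 and 26 CPM in the CDH1-high and at 34.4, 28.7, 28.1, 32.9 and 36.5 CPM in the CDH1-low libraries, a log2 fold change of -0.03 (SE 0.12). ZEB2 (-0.14, SE 0.30) and SNAI1 (-0.18, SE 0.20) also had differences within their errors. SNAI2 was not tested because its level was too low, at most 1.89 CPM, and TWIST1 was at 0 in all 14 libraries. The 2 factors with an unadjusted p under 0.05 were forkhead genes: FOXQ1 at 17.1, 25.2, 23.1, 25.4 and 33.3 CPM against 34.6, 57.7, 33, 56.8 and 27.4 CPM (log2 fold change -0.76, SE 0.24, edgeR adjusted p = 0.662), and FOXC1 with a log2 fold change of 0.40 (SE 0.15).

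Of 30 epithelial regulators and surface genes, 18 were tested, 0 were called by edgeR, 6 were higher and 0 lower at an unadjusted p under 0.05 (against 3.58% and 2.83% of all genes), and the median log2 fold change was 0.34. With 7 libraries a side this median was 0.19. The list's median deviation from the mean over the CDH1-high and CDH1-low libraries was 0.06 to 0.44 in the CDH1-high libraries. In the CDH1-low libraries other than Panc-1 13 it was -0.32 to -0.12. The list did not follow CDH1 library by library. Its deviation was 0.06 in Panc-1 8, which had the most CDH1. It was 0.07 in Panc-1 13, which had the least, and -0.42 in Panc-1 11, the first library below the CDH1-high group. DESeq2 called 1 of the 18 tested genes, against 0.367% of all genes. This was SPINT1, an inhibitor of epithelial serine proteases, at 84.6, 78.9, 60.2, 23.8 and 75.2 CPM against 31.7, 12.6, 27.7, 14.9 and 35.6 CPM. Its log2 fold change was 1.40 (SE 0.36), with an adjusted p of 0.608 in edgeR and 0.0298 in DESeq2. ELF3, an epithelial ETS factor, was at 14.7, 13.2, 2.06, 15.9 and 8.40 CPM against 3.81, 1.11, 2.96, 2.35 and 5.46 CPM, and BxPC3 19, at rank 3 by CDH1, was within the CDH1-low range. EPCAM, an epithelial adhesion molecule, had a log2 fold change of 0.65 (SE 0.24), but Panc-1 8, the library with the most CDH1, had 8.06 CPM and lay within the CDH1-low range of 7.55 to 11.9 CPM. ESRP1, an epithelial splicing regulator, stayed at 1.37 CPM or less throughout.

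Of 17 keratins, 10 were tested, and the median log2 fold change was 0.28. Among the 10, 4 were higher and 0 lower at an unadjusted p under 0.05, against 3.58% and 2.83% of all genes. KRT8, the simple-epithelial partner of KRT18, was at 4318, 4603, 3393, 2700.1 and 5131 CPM against 1868, 3825, 2696, 998 and 2669.9 CPM (log2 fold change 0.74, SE 0.31, edgeR adjusted p = 0.747). KRT15 had a log2 fold change of 0.49 (SE 0.20), and KRT16 was at 2.21 CPM or less in both groups. Of 28 tight junction and desmosome genes, 24 were tested, with a median of 0.26. Set against the same shares of all genes, 3 were higher and 1 lower at an unadjusted p under 0.05. These were EVPL, the envoplakin of desmosomes (log2 fold change 0.38, SE 0.14), F11R, the junctional adhesion molecule A (0.44, SE 0.18), CGN, cingulin of tight junctions (0.61, SE 0.26), and, in the other direction, CLDN11 (-1.44, SE 0.60), at 3.31 CPM or less.

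Mesenchymal genes were not lower in the CDH1-high libraries as a list. Of 39 listed, 36 were tested, and the median log2 fold change was 0.20. An unadjusted p under 0.05 was reached by 7 higher and 1 lower gene, against 3.58% and 2.83% of all genes. DESeq2 called 3, against 0.367% of all genes. All 3 were higher: MYL9 and the collagen VI chains COL6A2 and COL6A1. COL6A2 was at 77.7, 23.8, 48.4, 58.8 and 51.0 CPM in the CDH1-high and at 11.7, 24.3, 12.6, 8.29 and 27.3 CPM in the CDH1-low libraries, a log2 fold change of 1.62 (SE 0.37, edgeR adjusted p = 0.575, DESeq2 adjusted p = 0.00634). COL6A1 followed with a log2 fold change of 0.73 (SE 0.17), and BxPC3 17 had the lowest CDH1-high value for both chains. L1CAM, a neural adhesion molecule, did not overlap, with 1919, 1317, 1106, 1241 and 1671 CPM against 796, 1038, 982, 459.6 and 804 CPM (log2 fold change 0.83, SE 0.23, edgeR adjusted p = 0.607).

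**Figure D4:**
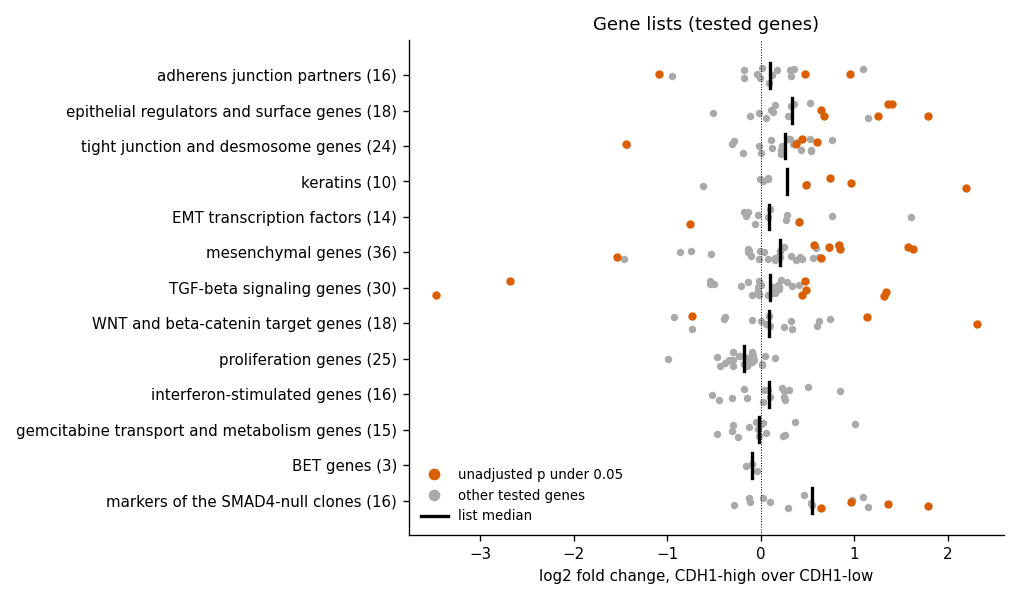
Log2 fold change (CDH1-high over CDH1-low, x axis) of each tested gene of 13 lists, with the number tested in brackets; black lines are list medians and orange points have an unadjusted p under 0.05. Medians run from -0.18 for proliferation genes to 0.54 for markers of the SMAD4-null clones, and no point passed the adjusted threshold in edgeR.

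Within TGF-beta signaling, the log2 fold changes of the ligands named here had opposite signs, and edgeR called 0 genes of the list. Of 33 genes, 30 were tested, and the median log2 fold change was 0.10. With an unadjusted p under 0.05, 5 were higher and 2 lower, against 3.58% and 2.83% of all genes. DESeq2 called 3, against 0.367% of all genes. INHBA, the activin A subunit, was at 0.579, 0.284, 0.865, 1.54 and 0.745 CPM in the CDH1-high and at 2.54, 1.76, 2.22, 11.3 and 8.01 CPM in the CDH1-low libraries (log2 fold change -2.68, SE 0.61, edgeR adjusted p = 0.575, DESeq2 adjusted p = 0.0056). Among the CDH1-low libraries, BxPC3 18 and Panc-1 13 had the highest INHBA, and Panc-1 11, between the groups, had 10.9 CPM. BMP2, a bone morphogenetic protein, was at 0.72 CPM or less in all CDH1-high libraries and at 19.3 CPM in BxPC3 15, 6.56 in Panc-1 13 and 2.35 in BxPC3 18, but it was at 0.455 CPM in BxPC3 22 and 0.547 in Panc-1 10. Its log2 fold change of -3.47 (SE 0.93) therefore rested on 3 of the 5 CDH1-low libraries.

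TGFB3, a TGF-beta ligand, was at 4.27, 6.03, 8.92, 9.19 and 14.1 CPM against 4.83, 2.73, 2.41, 4.35 and 2.48 CPM (log2 fold change 1.34, SE 0.34, edgeR adjusted p = 0.604, DESeq2 adjusted p = 0.0363). TGFBR3, the co-receptor betaglycan, did not overlap, with 18.1 to 26.7 CPM in the CDH1-high and 1.92 to 17.7 CPM in the CDH1-low libraries (log2 fold change 1.31, SE 0.43, edgeR adjusted p = 0.662). SMAD4 did not differ beyond its error, at 83.5 ± 9.11 and 85.8 ± 12.1 CPM in the CDH1-high and CDH1-low libraries and a log2 fold change of -0.04 (SE 0.12).

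Of 20 WNT and beta-catenin target genes, 18 were tested, 2 higher and 1 lower at an unadjusted p under 0.05. The shares of all genes were 3.58% and 2.83%. From this list, 0 were called by edgeR or DESeq2, and the median log2 fold change was 0.09. This median was -0.03 without BxPC3 18, 0.27 without BxPC3 19 and 0.32 with the filter at 5 CPM. The secreted WNT inhibitors did not share a direction. DKK1 was at 558, 482, 303, 323 and 604 CPM against 627, 525, 668, 1144 and 829 CPM (log2 fold change -0.74, SE 0.25), and NOTUM, a deacylase of WNT ligands, was at 7.38, 8.15, 11.4, 21.5 and 11.5 CPM against 3.92, 3.19, 5.69, 3.66 and 10.8 CPM (log2 fold change 1.14, SE 0.39). SP5, a transcription factor induced by beta-catenin, had a log2 fold change of 2.31 (SE 0.81) but only 1.41 CPM in Panc-1 8. The edgeR adjusted p of these genes was 0.678 or higher.

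Proliferation, interferon, gemcitabine and BET genes gave no member past even an unadjusted p of 0.05. All 25 proliferation genes were tested, 21 with a negative and 4 with a positive log2 fold change, and the median was -0.18. With 3 libraries a side this median turned to 0.21. MKI67, the proliferation antigen Ki-67, was at 487, 370, 365, 301 and 215 CPM against 464, 681, 494, 439 and 272 CPM (log2 fold change -0.43, SE 0.25, edgeR adjusted p = 0.817). The medians were 0.08 for 16 interferon-stimulated genes, -0.02 for 15 genes of gemcitabine transport and metabolism, and -0.09 for the 3 tested BET bromodomain genes. Without Panc-1 13 the interferon median was -0.04, and without BxPC3 15 it was 0.24. The gemcitabine median ran from -0.07 without BxPC3 22 to 0.03 without BxPC3 18. DESeq2 called 0 of the genes in these 4 lists, and edgeR called 0 at an adjusted or an unadjusted p under 0.05.

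The levels of markers listed for the SMAD4-null clones were set beside CDH1. Of these 30 markers, which were listed with these data known, 16 were tested, and the median log2 fold change was 0.54. Among the 16, 4 were higher and 0 lower at an unadjusted p under 0.05, against 3.58% and 2.83% of all genes. DESeq2 called 1 (KRT19), against 0.367% of all genes. Not every listed gene marked the SMAD4-null clones in these data. On a scale normalised over all 26 libraries, GPRC5A was at 502 to 1369 CPM in the 14 libraries against 89.9 to 233.7 CPM in the SMAD4-null ones, and MUC1 at 4.04 to 16.7 CPM against 3.72 CPM or less. CLDN4, at 93.1 to 624 CPM, reached above its SMAD4-null median of 96.7 CPM. The median and the sum of the list therefore do not measure SMAD4-null markers alone. On the same scale, CDH1 in Panc-1 8 amounted to 5.65% of its median of 415 CPM in the SMAD4-null libraries, and in Panc-1 13 to 0.23%. The same share of KRT17, a basal keratin with a SMAD4-null median of 2332 CPM, would be 132 CPM, and Panc-1 8 had 0.327 CPM. KRT5, with a median of 1489 CPM, and KRT6A were both at 0 CPM in Panc-1 8.

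Across the list, 19 of 30 markers lay below that share in Panc-1 8, 14 of them below 0.1 of it, and 11 lay above it. Those above included KRT19, CLDN4, CLDN7 and GPRC5A. In all 14 libraries, 13 of the 30 markers were below 1 CPM and KRT6A was at 0. The summed level of the list was 2829.6 to 3559.9 CPM in the CDH1-high, 1704 to 2909 CPM in the CDH1-low and 12953 to 16153 CPM in the SMAD4-null libraries. The part of SMAD4-null RNA in the CDH1 level of the libraries was not tested.

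**Figure D5:**
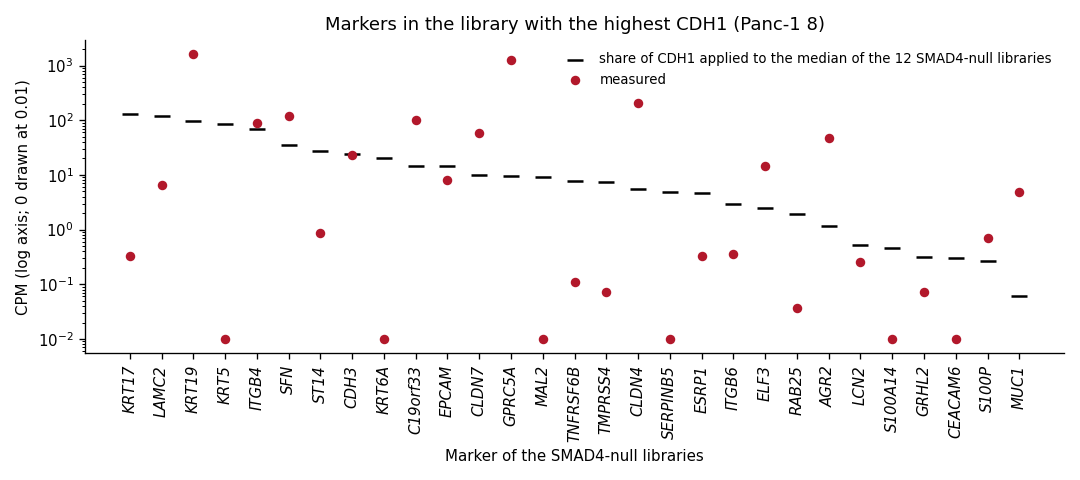
Level of 29 of the 30 markers of the SMAD4-null libraries in Panc-1 8, the library with the highest CDH1 (red points, CPM on a log axis with 0 drawn at 0.01), beside the level that 5.65% of the SMAD4-null median would give (black bars). KRT17, KRT5 and KRT6A lie far below the bars, and KRT19, GPRC5A and CLDN4 lie above them.

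As a check over all 14 SMAD4-positive libraries, the CPM of each gene was ranked against CDH1. The 10 libraries of the comparison were among them, so this check shared its values with the comparison of groups. A permutation test with 100000 permutations called 0 of 15250 genes (0.0%) after Benjamini-Hochberg adjustment over all 15250 correlations, the smallest adjusted p was 0.61, and 1024 genes (6.71%) had an unadjusted p under 0.05.

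Among genes averaging 2 CPM or more, the lowest Spearman's rho belonged to WDCP, a gene for a WD-repeat and coiled-coil protein, at -0.868 (permutation p = 0.00011, adjusted p = 0.61), with a Pearson's r of -0.699 on the log2 scale (permutation p = 0.00184, adjusted p = 0.6). WDCP was at 22.3, 23.4, 22.9, 22.4 and 22.9 CPM in the CDH1-high and at 25.7, 23.9, 28.7, 36.0 and 25.1 CPM in the CDH1-low libraries, so its order was regular while its log2 fold change was only -0.29 (SE 0.13). Without the 2 libraries farthest from the median of CDH1, Panc-1 8 and BxPC3 17, r was -0.698, and rho was -0.821 among the 7 libraries labelled BxPC3 and -0.964 among the 7 labelled Panc-1. PLK3, a stress-responsive polo-like kinase, followed with a rho of -0.864 (permutation p = 0.00012, adjusted p = 0.61) and an r of -0.859 (permutation p = 2e-05, adjusted p = 0.229). It was at 7.23, 9.19, 9.99, 13.4 and 14.1 CPM in the CDH1-high and at 14.3, 16.1, 14.1, 31.8 and 22.6 CPM in the CDH1-low libraries, with the highest level in BxPC3 18. Its r was -0.796 without the 2 farthest libraries, and its rho was -0.964 within the BxPC3 and -0.679 within the Panc-1 label.

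UBXN11 (rho -0.824), the helicase gene DHX34 (-0.811) and HES7, a Notch-responsive repressor of the segmentation clock (-0.793), completed the lowest 5. HES7 was at 4.88, 10.7, 5.46, 4.18 and 12.5 CPM against 14.3, 9.23, 22.6, 18.4 and 37.2 CPM, a log2 fold change of -1.43 (SE 0.41, edgeR adjusted p = 0.636). The adjusted p of all 3 rank correlations was 0.63.

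Among genes averaging 2 CPM or more, the highest rho belonged to RHPN2, at 0.842 (permutation p = 0.00033, adjusted p = 0.63), with an r of 0.794 (permutation p = 0.0007, adjusted p = 0.582). RHPN2 was at 507, 438, 545, 424 and 377 CPM in the CDH1-high and at 359, 345, 313, 389 and 258 CPM in the CDH1-low libraries. Its r was 0.753 without Panc-1 8 and BxPC3 17, and rho was 0.643 and 0.821 within the BxPC3 and Panc-1 labels. KLF10, a transcription factor induced early by TGF-beta, had a rho of 0.833, and DESeq2 also called it between the groups (log2 fold change 0.56, SE 0.14, edgeR adjusted p = 0.587, DESeq2 adjusted p = 0.0445). MAP3K2, a kinase upstream of ERK5, had a rho of 0.83, and ZBED1 one of 0.815.

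FRMD3 and CRABP2 tied at a rho of 0.807. CRABP2, which carries retinoic acid to its nuclear receptor, was at 481, 796, 385, 529 and 384 CPM against 233, 67.9, 152, 225 and 287 CPM, and its means of 515 ± 169 and 193 ± 84.8 CPM (SD, n = 5 each) gave a log2 fold change of 1.42 (SE 0.34, edgeR adjusted p = 0.575, DESeq2 adjusted p = 0.011). FRMD3, a FERM domain gene, was at 33.9, 30.5, 26.3, 30.6 and 23.3 CPM against 16, 18.1, 11.6, 7.46 and 15.7 CPM, but 1 library between the groups, BxPC3 23, had only 0.307 CPM. Its r of 0.395 was far below its rho, and was 0.238 without the 2 farthest libraries. None of these 11 genes changed the sign of rho when any 1 library was left out or within either label. They were chosen for extreme rho over the same 14 libraries, so an unchanged sign is no independent support.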

How the data were processed

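Per the labels and methods, poly-A, strand-specific libraries of the 26 SCDCLs were quantified by the authors with kallisto 0.46.1 on GRCh38 transcripts (Ensembl 103) and summarised per gene. The deposited table holds TPM, length-scaled estimated counts and 30 resampled estimated counts per library, whose spread gave the error of CDH1. Length scaling can move a gene whose transcript use differs between libraries, and CDH1 in Panc-1 14 had 154 resampled beside 261 length-scaled counts.

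Groups followed CDH1 TPM among libraries with SMAD4 of 1 TPM or more. Estimated counts were rounded, filtered with filterByExpr, TMM-normalised and tested with edgeR 4.0.16 (R 4.3.3). The SE was derived from the F statistic. DESeq2 1.42.0 and limma 3.58.1 were alternatives; adjusted p under 0.05 was called. DESeq2 gave no adjusted p for 335 genes. The rank check used numpy 2.4.6 and pandas 2.3.3. Scripts were tested on simulated data. Coordinates are from GENCODE 44 (GRCh38). The values of 1 marker of the SMAD4-null clones are not reported here, though it is counted in its list.

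The members and gene lists were chosen with earlier results of these data known. By rule, the text names in each direction the 5 genes with the smallest unadjusted p and no overlap (0 passed the adjusted threshold), the 5 highest and lowest rho among genes averaging 2 CPM or more (ties kept), up to 4 members per list with the smallest p, adherens partners, EMT factors, CDH1's neighbours and cell type markers.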

Additional observations from a re-analysis of the deposited data

Results flagged for a closer look

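Within the end groups and the 4 libraries between them, the levels of 69 named genes were examined for a single library far from the rest of its group. Of 207 groups examined, 8 (3.86%) had such a library by Dixon's 95% critical value, which flags about 1 in 20 groups by chance where values are normally distributed. The distribution of these values was not tested.

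In the CDH1-high libraries, Panc-1 9 stood apart with 18.5 CPM of CAMK2N1, where the others had 9.22 to 10.2 CPM, and with 1.37 CPM of ESRP1, where the others had 0.325 to 0.609 CPM. In the CDH1-low libraries, BxPC3 22 stood apart with 10.5 CPM of KRT15, where the others had 13.5 to 14.7 CPM.

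Among the libraries between the groups, Panc-1 11 stood apart in 4 genes. It had 10.9 CPM of INHBA, where the others had 0.333 to 0.689 CPM, 9.39 CPM of BMP2, where the others had 0.103 to 0.522 CPM, 42.1 CPM of TRIM7, where the others had 21.2 to 24.1 CPM, and 0.0356 CPM of CDH6, where the others had 0.259 to 0.277 CPM. BxPC3 20 stood apart with 27.4 CPM of WDCP, where the others had 23.6 to 24.0 CPM.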

How the results depend on the processing

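The count of genes between the groups stayed at 0 in 22 alternatives with edgeR or limma, leaving out each of the 10 libraries included (range 0 to 0), and their smallest adjusted p was 0.0692. With DESeq2 it was 56, and the cause of this gap between tools was not tested. Fits added after seeing the data gave 39 to 112 DESeq2 calls without 1 library, the most without Panc-1 13 (46 shared with the 56), and 28 calls (18 shared) when CDH1 was ranked by CPM. LOXL4, KRT19 and GPRC5B were DESeq2 calls in all 11 of these fits, and the other 7 named genes in 9 or 10. All 10 named genes kept their direction in 229 of 229 alternative values. These genes were chosen for groups without overlap in the same libraries, so neither their direction nor their repeated calls are independent support. Without a filter, 1528 of 25230 genes had an unadjusted p under 0.05.

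List medians moved beyond the spread between libraries in few settings. The median log2 fold change of keratins was 0.49 without a filter and 0.49 with the filter at 5 CPM. With 7 libraries a side, that of tight junction and desmosome genes was 0.054. With 3 a side, those of proliferation and interferon-stimulated genes were 0.21 and 0.32, and the latter was 0.30 with CDH1 ranked by CPM or by resampled counts. With 1 library left out, the medians ran from 0.11 to 0.36 for mesenchymal genes (highest without Panc-1 8), from -0.0018 to 0.14 for TGF-beta signaling genes (lowest without Panc-1 10), and from 0.018 to 0.19 for adherens junction partners and 0.20 to 0.51 for epithelial regulators (both highest without Panc-1 13). List medians were not computed for the continuous fit, whose slopes are not group differences.

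For rank correlations, 0 genes were called in all 17 alternatives (746 to 1212 at an unadjusted p under 0.05). Whether the difference between the groups differed between the labels was also tested, as an interaction of group and label. In edgeR, 0 interactions were called (653 at an unadjusted p under 0.05, smallest adjusted p 0.329). No paired analysis was made, because each library came from a separate clone and the labels give no pairs. Low counts limit genes near 1 CPM, and with 5 clones a side a common dispersion of 0.341 (as a coefficient of variation) limits small differences.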

Other observations

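EREG, the EGF receptor ligand epiregulin, was outside the rule for named genes and was chosen after its values were seen. It was at 0.0362, 0.758, 1.10, 0.171 and 0.576 CPM in the CDH1-high libraries and at 0.944 CPM in BxPC3 15, 17.1 in BxPC3 22, 1.45 in Panc-1 10, 145 in BxPC3 18 and 5.39 in Panc-1 13. The groups overlapped at their edge, 1.10 against 0.944 CPM, and the log2 fold change of -5.98 (SE 1.45, edgeR adjusted p = 0.575, DESeq2 adjusted p = 0.00465) rested mostly on BxPC3 18. In the SMAD4-null libraries, which had far more CDH1, the median of EREG was 254 CPM.

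The nearest pairs of libraries crossed the labels. Over all genes, the counts of Panc-1 11 and BxPC3 15 differed least (chi-square per degree of freedom 38.4), followed by Panc-1 8 and BxPC3 17 (42.9), the 2 libraries with the most CDH1. Next came BxPC3 17 and Panc-1 10 (48.8), a CDH1-high and a CDH1-low library. Panc-1 11 and BxPC3 15 also shared high BMP2 (9.39 and 19.3 CPM) and distal chromosome 5 levels (0.29 and 0.28 on the log2 scale), although CDH1 was 3.07 TPM in one and 1.53 TPM in the other.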
